A study of Rattus norvegicus with 6 samples.

Results

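Semaphorins and ephrins are guidance ligands, and plexins, neuropilins and Eph receptors are the receptors that read them. Class 3 semaphorins are secreted and mostly act through a neuropilin that binds the ligand and a plexin that carries the signal into the cell, whereas the semaphorins of classes 4 to 7 sit in the membrane and bind plexins directly. Ephrins are held at the cell surface, the A type by a lipid anchor and the B type by a membrane-spanning segment, and signal through EphA and EphB receptor tyrosine kinases while also signalling back into the cell that carries them. In the hippocampus these families are known for steering axons, for shaping dendrites, and for adding or removing dendritic spines and synapses.

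The genes described here are the 47 of 26405 rows of the count table whose rat symbol is that of a semaphorin, ephrin, plexin, neuropilin or Eph receptor. They comprise 27 ligand genes (19 semaphorins and 8 ephrins) and 20 receptor genes (6 plexins, 2 neuropilins and 12 Eph receptors). The rule uses names only and no measured value.

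RNA from 6 primary cultures of rat hippocampal neurons was sequenced, 3 labelled S-SCAM KD and 3 labelled control. The knockdown cultures had been infected at DIV2 with a lentivirus that delivers an shRNA against S-SCAM (the scaffold protein MAGI2, gene Magi2), and the control cultures, labelled WT, with a virus carrying an empty shRNA vector. A figure legend of the study calls the control an shRNA instead, so what the control virus expressed is not settled here. All cultures were harvested at DIV9, and the virus was given to the whole culture, which holds glia beside neurons. In such bulk RNA, fewer cells of a type and less RNA per cell cannot be told apart. The labels call the replicates biological, and p-values measure the spread between these cultures.

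Between 13061705 and 29654651 reads per library were counted on genes. Levels are given as CPM, read counts divided by library size, scaled by edgeR's TMM factors (0.934 to 1.04). They are not divided by transcript length, so they are compared between cultures and not between genes. Magi2 itself was measured at 30.4, 21.1 and 40.4 CPM in knockdown replicates 1 to 3, against 82.8, 74.7 and 95.8 CPM in control replicates 1 to 3. Its groups did not overlap (log2 fold change -1.46 ± 0.27 SE, exact permutation p = 0.1, the smallest that 3 against 3 cultures can give). Its adjusted p was 0.228 with edgeR and 0.00124 with DESeq2, and without control replicate 3 the DESeq2 value was 0.0785. In a principal component analysis of all genes tested, knockdown replicate 2 lay furthest out along the leading axis (41.6% of the variance), at -73.7. Knockdown replicate 1 came next at -24.2. Knockdown replicate 3 at 17.0 lay near the controls, which stood at 30.4, 28.6 and 22.1 in replicates 1 to 3.

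The estimates of the members lay in both directions, and few were large. Of the 46 members with enough counts to be tested, 22 had a higher and 24 a lower estimate in the knockdown group. The median log2 fold change (knockdown over control) was -0.01, against -0.02 over all 13917 genes tested. A change of more than 1 on the log2 scale, in either direction, was estimated for 4 members, Sema3e, Sema3c, Sema5a and Efnb3, and all 4 were lower. EdgeR called 0 members at an adjusted p under 0.05, as it called 0.0% of all genes. At an unadjusted p under 0.05 it listed 9 members (19.6%), 2 higher and 7 lower, where 10.8% of all genes tested were listed, 3.69% higher and 7.14% lower. DESeq2 called 2 of 47 members (4.26%), both lower, against 1.32% of all genes, 1.07% lower and 0.251% higher. The 3 knockdown cultures did not overlap the 3 control cultures in 8 of 46 members (17.4%), 2 higher and 6 lower. This is close to the 17.6% found over all genes tested, 7.42% higher and 10.2% lower.

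Ligands were spread more widely than receptors. The 27 ligands had log2 fold changes from -1.67 to 0.88 with a median of 0.03, of which 15 were higher and 12 lower. The 19 receptors tested ran from -0.81 to 0.62 with a median of -0.21, of which 7 were higher and 12 lower. The listings at an unadjusted p under 0.05 comprised 7 ligands (2 higher, 5 lower) and 2 receptors, both lower. Both DESeq2 calls were ligands. The row described as plexin C1, a receptor that the rule names, has no symbol and is not among the 19 receptors. Its estimate of -1.44 lay below the receptor range, and DESeq2 called it (adjusted p = 0.0195). The receptor range and the absence of receptor calls therefore depend on leaving this row out. The receptor median was not evenly carried by the cultures: on a log2(CPM + 0.5) scale relative to the control mean it was -0.07, -0.30 and -0.11 in knockdown replicates 1 to 3, against -0.04, -0.07 and 0.21 in control replicates 1 to 3. The ligand medians of the same cultures were 0.06, -0.06 and -0.07 in knockdown, against -0.08, 0.04 and 0.08 in control. The receptor median was thus lowest in knockdown replicate 2 and highest in control replicate 3, and without control replicate 3 the fitted receptor median was -0.07. Whether ligands and receptors differed was not tested, since genes are not replicates.

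**Figure D1:**
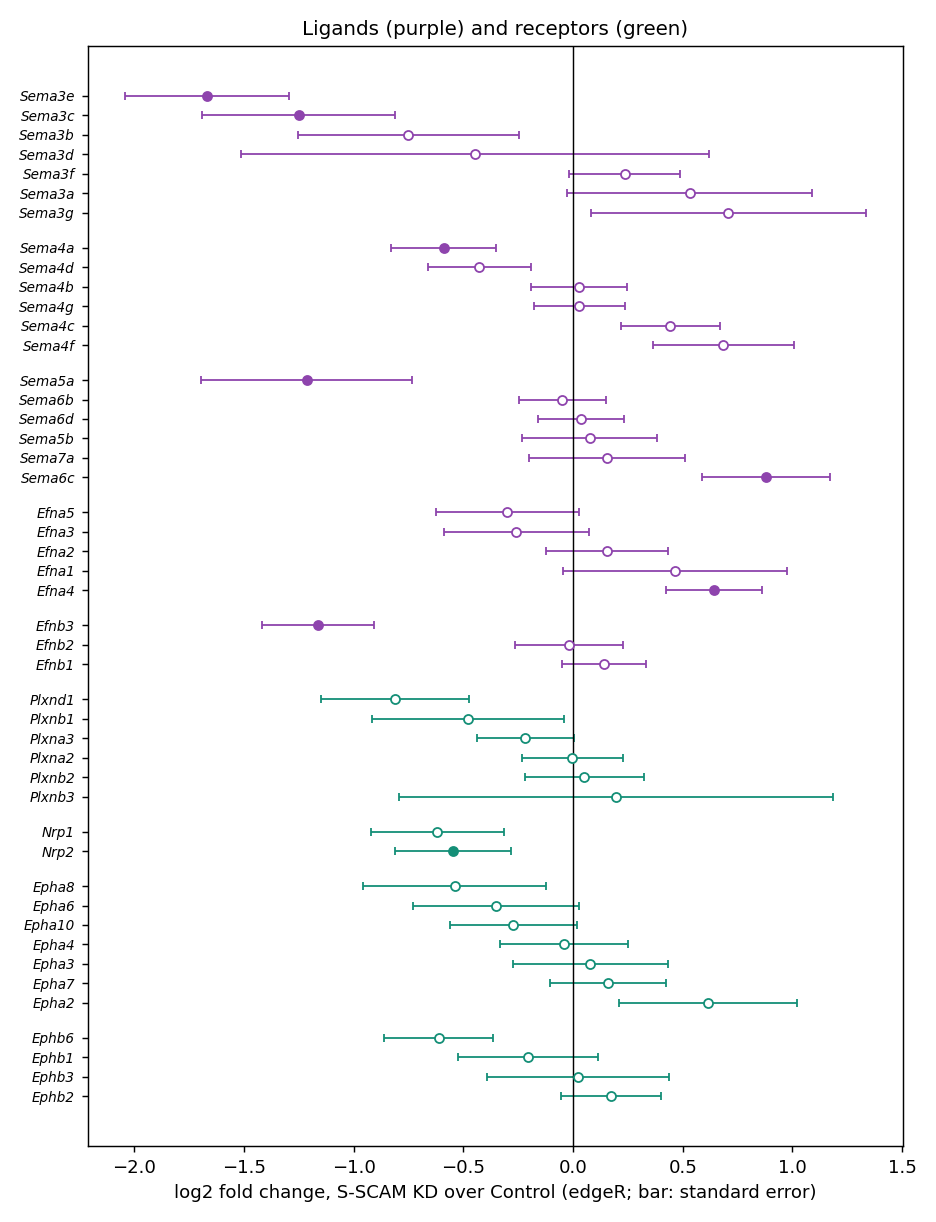
Log2 fold change (S-SCAM KD over control, edgeR, x axis, bar: standard error) of the 46 members tested, by class, ligands in purple and receptors in green. Filled points mark the 8 members whose 3 knockdown and 3 control cultures do not overlap. Ligands run from -1.67 to 0.88 and receptors from -0.81 to 0.62.

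Class 3 semaphorins held the 2 lowest estimates among all members. Sema3e, a secreted ligand that binds Plxnd1 without needing a neuropilin, was measured at 2.17, 1.56 and 2.57 CPM in knockdown replicates 1 to 3, against 5.34, 5.50 and 9.12 CPM in control replicates 1 to 3. Each knockdown culture lay below each control culture, and the mean was 31.5% of the control mean. The log2 fold change was -1.67 ± 0.37 (SE), with an adjusted p of 0.291 in edgeR and 0.00749 in DESeq2. The DESeq2 call was lost without control replicate 3 (adjusted p = 0.305), without knockdown replicate 1 (0.0599) and without knockdown replicate 2 (0.0728). Sema3c, a secreted ligand that acts through neuropilins with Plxnd1 or A-type plexins, was measured at 10.5, 13.6 and 35.3 CPM in knockdown, against 42.0, 58.7 and 40.6 CPM in control. Knockdown replicates 1 and 2 were far below the controls, while replicate 3 came close to them (log2 fold change -1.25 ± 0.44, adjusted p = 0.408 in edgeR and 0.174 in DESeq2).

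The other class 3 members gave no separated groups, which 17.6% of all genes tested had. Sema3b had a log2 fold change of -0.75 and Sema3d of -0.45, while Sema3f stood at 0.24, Sema3a at 0.53 and Sema3g at 0.71, none of them at an unadjusted p under 0.05. Sema3a, the classical growth cone repellent that binds Nrp1, was measured at 3.47, 7.34 and 9.56 CPM in knockdown, against 2.47, 8.78 and 3.08 CPM in control, so that the cultures of each group spread over the same range. Sema3g rested on 10 to 18 reads in the knockdown libraries and 1 to 15 in the control libraries. In the rn5 annotation of the files, Sema3c, Sema3a, Sema3e and Sema3d all lie on chromosome 4 between 14293372 and 19359164, and the 4 neighbours had estimates of both signs.

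The promoters of Sema3e and Sema3c are shown because these ligands had the lowest estimates and yet start in unlike sequence. The lines hold 250 bases before and 50 after the start in RefSeq's GRCr8 assembly, read 5′ to 3′ on the gene's own strand. Capitals mark matches to a GC box (GGGCGG, or CCGCCC on the other strand) or an E-box (CANNTG, which reads alike on both strands).
Sema3e, chr4:21510325-21510624, minus strand: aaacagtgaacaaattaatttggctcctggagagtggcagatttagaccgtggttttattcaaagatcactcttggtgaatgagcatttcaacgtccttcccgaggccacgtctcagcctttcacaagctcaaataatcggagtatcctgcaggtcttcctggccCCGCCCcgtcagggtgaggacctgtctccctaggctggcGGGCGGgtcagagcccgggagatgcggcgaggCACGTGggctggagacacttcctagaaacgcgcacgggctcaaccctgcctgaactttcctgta
Sema3c, chr4:18699578-18699877, minus strand: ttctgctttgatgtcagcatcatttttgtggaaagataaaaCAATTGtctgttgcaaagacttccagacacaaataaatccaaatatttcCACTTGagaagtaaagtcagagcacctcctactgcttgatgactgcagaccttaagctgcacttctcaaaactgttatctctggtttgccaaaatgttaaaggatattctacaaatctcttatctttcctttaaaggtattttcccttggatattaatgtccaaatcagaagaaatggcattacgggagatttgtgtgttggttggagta
The Sema3e window held 16 CG dinucleotides, 2 GC boxes and 1 E-box, and the Sema3c window 1 CG dinucleotide, no GC box and 2 E-boxes. Of 47 members, 39 had a promoter in the table. Their median GC content was 61.0% and their median number of CG dinucleotides 18, against 52.3% and 7 over all 27457 promoters of the table. A GC box was present in 53.8% of member promoters against 34.9% of all, an E-box in 64.1% against 71.6%, and a CCAAT box (CCAAT or ATTGG) in 38.5% against 37.7%. TATAAA, on either strand, was found in 0 member promoters against 14.3% of all. These matches describe letters in a window and not sites that a factor was shown to use.

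Among the class 4 semaphorins, which are membrane proteins, Sema4a was measured at 23.6, 19.4 and 19.1 CPM in knockdown, against 24.7, 37.6 and 31.4 CPM in control. The groups did not overlap, although knockdown replicate 1 and control replicate 1 nearly touched (log2 fold change -0.59 ± 0.24, edgeR adjusted p = 0.430). Sema4f, which interacts with the postsynaptic scaffold PSD-95, was measured at 85.7, 124 and 50.7 CPM in knockdown, against 43.4, 57.3 and 61.1 CPM in control. Knockdown replicates 1 and 2 exceeded each control culture and replicate 3 did not (0.69 ± 0.32, edgeR adjusted p = 0.483). Sema4c, a ligand of Plxnb2, had an estimate of 0.44, and Sema4d, the ligand of Plxnb1 that is known to promote inhibitory synapse formation, of -0.43. Sema4b and Sema4g both stood at 0.03. Sema4g, the class 4 gene with the highest mean CPM, was measured at 83.3, 68.5 and 62.7 CPM in knockdown, against 65.8, 61.4 and 83.1 CPM in control.

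In classes 5 to 7, Sema5a and Sema6c had estimates of opposite sign. Sema5a, a membrane semaphorin with thrombospondin repeats that limits synapse number in mouse dentate granule cells, was measured at 13.8, 9.11 and 38.9 CPM in knockdown, against 45.4, 44.0 and 53.9 CPM in control. As with Sema3c, knockdown replicate 3 came near the controls while replicates 1 and 2 were far below (-1.21 ± 0.48, adjusted p = 0.427 in edgeR and 0.244 in DESeq2). Sema6c, a transmembrane semaphorin of the class that binds A-type plexins, was measured at 114, 170.1 and 74.6 CPM in knockdown, against 59.7, 66.6 and 68.6 CPM in control. Its groups did not overlap, with knockdown replicate 2 highest and replicate 3 just above the controls (0.88 ± 0.29, adjusted p = 0.392 in edgeR and 0.185 in DESeq2). Sema6d, a transmembrane ligand of Plxna1 with the most reads of its class, was measured at 176, 149 and 158 CPM in knockdown, against 179, 131 and 160 CPM in control, a log2 fold change of 0.04. Sema5b, Sema6b and Sema7a had estimates of 0.08, -0.05 and 0.15.

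Of the ephrins, Efnb3 gave the clearest difference. Efnb3, a B-type ephrin of neurons that binds EphB receptors and Epha4 and is known in mice for spine and synapse formation, was measured at 210.0, 119 and 185 CPM in knockdown, against 320.2, 404 and 426 CPM in control. The mean was 171 ± 47.1 in knockdown and 383 ± 55.9 in control (SD, n = 3 each), with a wide gap between the highest knockdown and the lowest control culture. The log2 fold change was -1.16 ± 0.26, with an adjusted p of 0.291 in edgeR and 0.0153 in DESeq2. The DESeq2 call was lost without control replicate 3 (adjusted p = 0.291) and held in each of the other 5 fits that left out a culture (0.0130 to 0.0474). The other B-type ephrins, Efnb1 and Efnb2, had estimates of 0.14 ± 0.19 and -0.02 ± 0.25.

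Efna4, an A-type ephrin, had a higher estimate. It was measured at 19.4, 19.1 and 17.0 CPM in knockdown, against 11.5, 12.5 and 11.7 CPM in control, with little spread in either group (0.64 ± 0.22, adjusted p = 0.402 in edgeR and 0.181 in DESeq2). Efna1 and Efna3 lie next to Efna4 on chromosome 2 (208002159 to 208070220 in rn5), and their estimates were 0.47 and -0.26. Efna3 was measured at 24.5, 32.5 and 25.7 CPM in knockdown, against 20.7, 49.8 and 28.8 CPM in control, where control replicate 2 alone was high. Efna2 and Efna5 had estimates of 0.15 and -0.30.

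**Figure D2:**
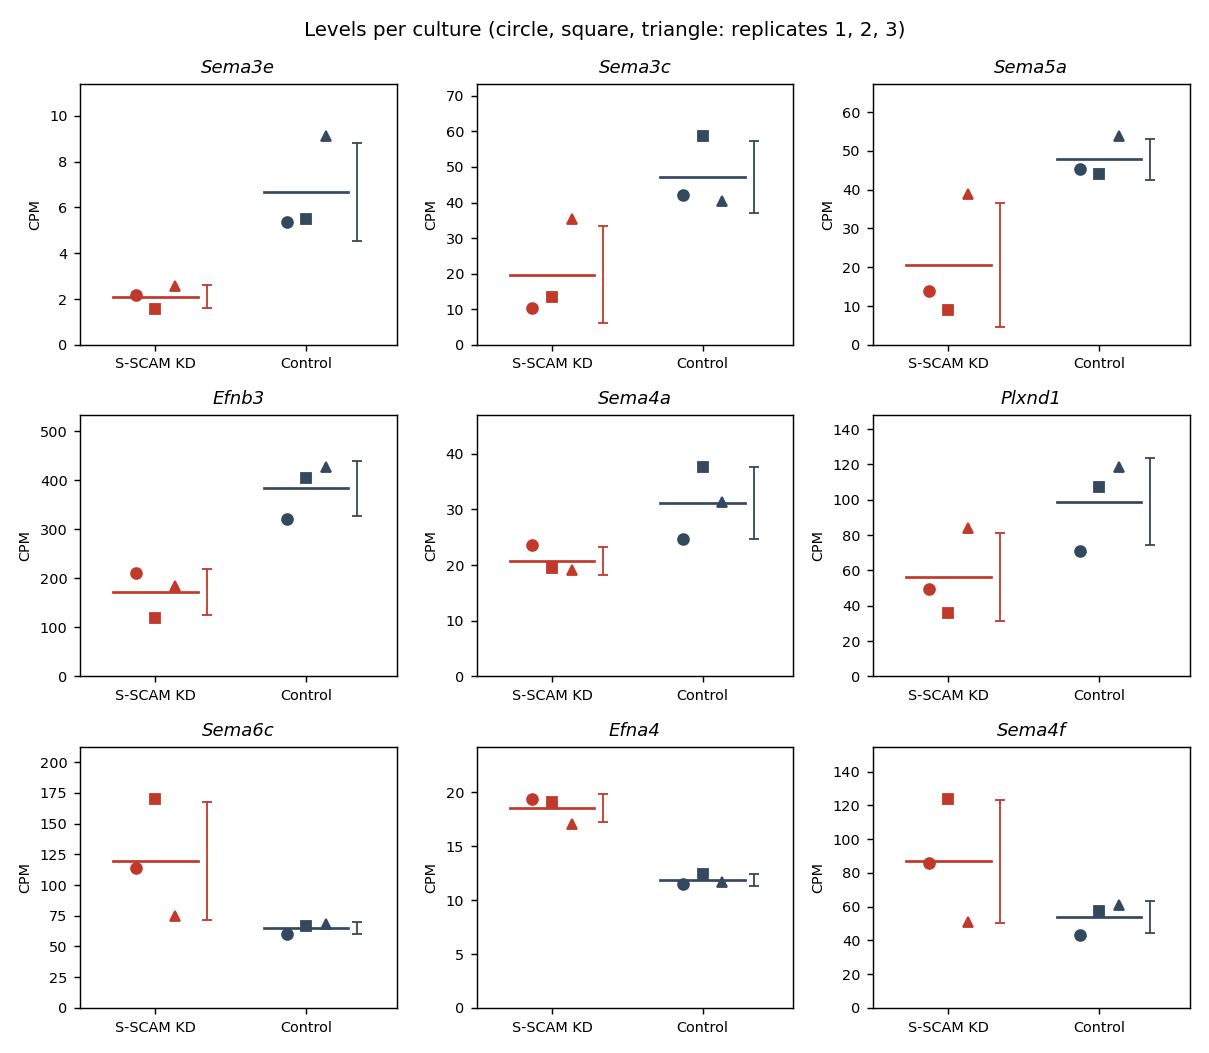
CPM per culture of 9 members, S-SCAM KD in red and control in blue, with circles, squares and triangles for replicates 1, 2 and 3, a line at the mean and a bar for the SD (n = 3 each). Sema3e and Efnb3 are lower in each knockdown culture, Sema3c, Sema5a and Plxnd1 have knockdown replicate 3 near the controls, and Efna4 is higher with little spread.

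Among the plexins, the receptors that carry a GTPase-activating domain inside the cell, Plxnd1 had the lowest estimate. Plxnd1, the receptor of Sema3e, was measured at 49.5, 35.7 and 83.7 CPM in knockdown, against 71.2, 107 and 118 CPM in control. Knockdown replicate 3 lay above control replicate 1, so the groups overlapped (-0.81 ± 0.34, edgeR adjusted p = 0.437). Plxnb2, a receptor of Sema4c with the most reads of the plexins, was measured at 344, 216 and 353 CPM in knockdown, against 374, 229 and 278 CPM in control, a log2 fold change of 0.05. Plxna2 stood at -0.0039, Plxna3 at -0.22 and Plxnb1 at -0.48. Plxnb3 spread most, with 2.28, 1.59 and 27.3 CPM in knockdown, against 3.58, 9.02 and 14.6 CPM in control, and its estimate of 0.20 had an SE of 0.99.

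Both neuropilins had lower estimates. Nrp2, the co-receptor of Sema3f and Sema3c, was measured at 44.0, 45.1 and 50.6 CPM in knockdown, against 57.2, 50.8 and 96.0 CPM in control. The groups were separated only by the small step from knockdown replicate 3 to control replicate 2 (-0.55 ± 0.27, edgeR adjusted p = 0.493). Nrp1, the co-receptor of Sema3a, was measured at 44.8, 30.7 and 33.1 CPM in knockdown, against 60.3, 34.0 and 72.0 CPM in control, with overlap (-0.62 ± 0.30, edgeR adjusted p = 0.498).

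The Eph receptors gave no separated groups in any of the 11 tested, where 17.6% of all genes tested had separated groups. Whether these 11 genes differ from that share was not tested. Ephb6, an EphB family member without kinase activity, was measured at 64.3, 46.4 and 43.3 CPM in knockdown, against 93.4, 59.1 and 82.7 CPM in control. Only knockdown replicate 1 exceeded control replicate 2 (-0.61 ± 0.25, edgeR adjusted p = 0.430). Ephb1, a receptor kinase that in mice steers retinal axons at the optic chiasm, was measured at 85.8, 45.2 and 105 CPM in knockdown, against 99.3, 67.9 and 104 CPM in control, a log2 fold change of -0.20. Ephb2 and Ephb3, which with Ephb1 are known in mice for building dendritic spines of hippocampal neurons, had estimates of 0.17 and 0.02.

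Of the EphA receptors, Epha4, which in mice is known for retracting spines when glial ephrin-A3 binds it, had the most reads. It was measured at 122, 153 and 118 CPM in knockdown, against 82.1, 141 and 181 CPM in control, so that the controls spread around the knockdown cultures (-0.04 ± 0.29, edgeR adjusted p = 0.970). Epha2 had the highest receptor estimate at 0.62 ± 0.41, on levels of 0.98, 1.63 and 1.73 CPM in knockdown, against 0.90, 0.98 and 0.95 CPM in control. The remaining EphA estimates ran from -0.54 (Epha8) to 0.16 (Epha7). Epha1 had 6 to 7 reads in the knockdown libraries and 2 to 5 in the control libraries and was not tested by edgeR. It overlaps the much more counted Zyx, and the library kit keeps no strand, so reads of overlapping genes cannot be told apart. The same limit holds for Epha6 (-0.35), with 43 to 95 reads per library, which overlaps an unnamed row of 26 to 132 reads.

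Setting ligands beside their known receptors, the estimates shared their sign in some pairs and not in others. Sema3e and its receptor Plxnd1 were both lower (-1.67 and -0.81), as were Sema3c (-1.25) and the neuropilins (-0.62 and -0.55). Sema3a stood at 0.53 beside -0.62 for Nrp1, and Sema3f at 0.24 beside -0.55 for Nrp2. Sema4d and Plxnb1 were -0.43 and -0.48, and Sema4c and Plxnb2 0.44 and 0.05. Efnb3 at -1.16 stood beside estimates between -0.20 and 0.17 for Ephb1, Ephb2, Ephb3 and Epha4. All of these pairs come from the same 6 cultures, and the relation of ligand to receptor was not tested.

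Plexin C1, the receptor of Sema7a, is named in the rule, but the row described as plexin C1 (ENSRNOG00000007970) has no symbol and so is not counted among the members. It was measured at 109, 40.3 and 96.4 CPM in knockdown, against 264, 204 and 199 CPM in control. Each knockdown culture was below each control culture (-1.44 ± 0.35, adjusted p = 0.331 in edgeR and 0.0195 in DESeq2). The DESeq2 call was lost without control replicate 1 (0.193) and without control replicate 3 (0.178). Among family rows under other names, Plxna4a was measured at 83.6, 65.9 and 72.5 CPM in knockdown, against 95.2, 91.6 and 119 CPM in control. Its groups did not overlap (-0.46 ± 0.20, adjusted p = 0.451 in edgeR and 0.506 in DESeq2). Sema6a had an estimate of -0.28, Epha5 of -0.20 and Ephb4 of 0.31, each with overlap.

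Cell type markers ran with several members. The summed level of 6 fibroblast and meningeal markers was 17.3, 12.3 and 54.7 CPM in knockdown, against 68.2, 84.2 and 72.5 CPM in control. The 5 of these that were tested (Col1a1, Col1a2, Col3a1, Dcn and Igf2) were each lower in all knockdown cultures, and Lum, the sixth, lay at or below 0.133 CPM in knockdown and 0.206 CPM in control. As percent of the control mean, knockdown replicates 1 and 2 were low and replicate 3 was nearer the controls in the summed level, to which the collagens Col1a1, Col1a2 and Col3a1 contributed most, as in Sema3c, Sema5a and Plxnd1. Dcn did not follow this, with 1.03, 0.450 and 0.221 CPM in knockdown, against 3.74, 1.56 and 2.01 CPM in control, nor did Igf2, with 0.217, 0.173 and 0.531 CPM in knockdown, against 1.15, 1.39 and 5.06 CPM in control. In both of these and in Sema3e, knockdown replicate 3 stayed low. The part of these cells in the members' differences was not tested. Endothelial markers summed to 1.99 to 4.12 CPM in knockdown and 2.05 to 4.44 CPM in control over the 5 of 6 in the table, with the defining Cldn5 and Cdh5 at or near 0 in each library.

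Without knockdown replicate 3, which lay nearest the controls in Sema3c, Sema5a and Plxnd1, DESeq2 called 8 members where 5.07% of all genes were called. These were Sema5a (-2.04), Sema3c (-1.94), Sema3e (-1.83), Efnb3 (-1.20), Plxnd1 (-1.19) and Plxnb3 (-2.21) with lower estimates, and Sema6c (1.15) and Sema4f (0.98) with higher ones. Leaving out the knockdown culture nearest the controls in a gene widens the difference of that gene. The calls of Sema3c, Sema5a and Plxnd1 in this fit are therefore no separate evidence for them. Without control replicate 3 it called 0 members, where 0.262% of all genes were called. Without knockdown replicate 2, which lay furthest out in the principal component analysis, it called Efnb3 alone, where 0.829% of all genes were called. Without knockdown replicate 1, Efnb3 was again the only member called, among 102 genes. Without control replicate 1 or 2, Efnb3 and Sema3e were called, among 140 and 299 genes.

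**Figure D3:**
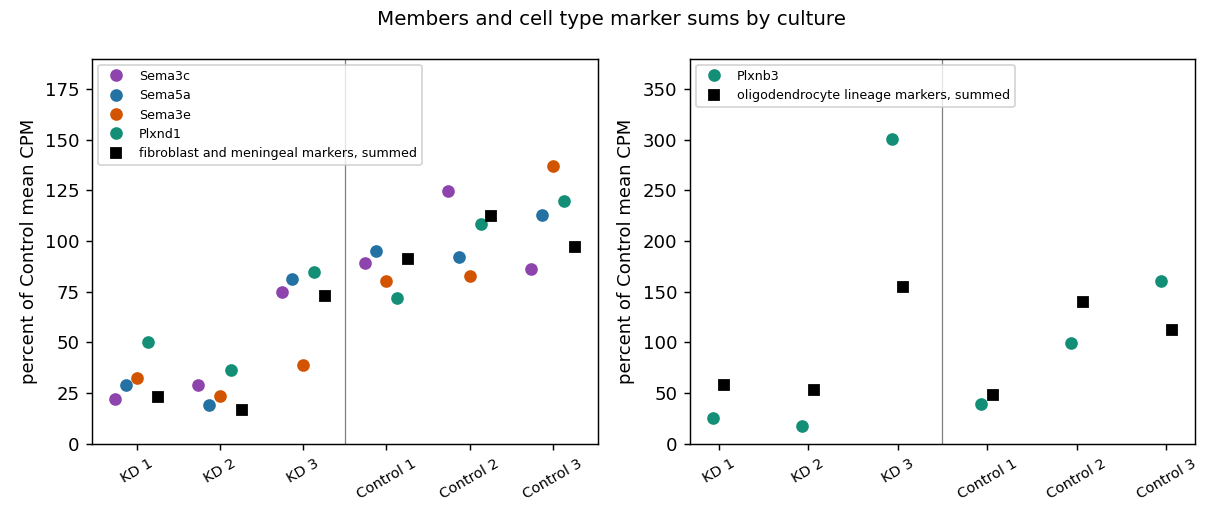
Levels per culture as percent of the control mean CPM, with knockdown cultures left of the line and control cultures right of it. On the left, Sema3c, Sema5a, Sema3e and Plxnd1 stand with the sum of 6 fibroblast and meningeal markers (black squares), and on the right Plxnb3 with the sum of 8 oligodendrocyte lineage markers. Knockdown replicate 3 is near the controls in the left panel except for Sema3e, and Plxnb3 and the lineage sum are highest there in the right panel.

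Plxnb3, a plexin known from oligodendrocytes, ran with the oligodendrocyte lineage. The 8 lineage markers summed to 602, 549 and 1616 CPM in knockdown, against 504, 1466 and 1177 CPM in control, and Plxnb3 too was highest in knockdown replicate 3 and low in knockdown replicates 1 and 2 and control replicate 1. Plxnb1 was measured at 119, 38.7 and 139 CPM in knockdown, against 182, 99.9 and 130.4 CPM in control. It was highest in control replicate 1 and lowest in knockdown replicate 2, as was the sum of the 5 astrocyte markers in the table (4726, 1765 and 3707 CPM in knockdown, against 8234, 3862 and 3440 CPM in control). This order was not particular to Plxnb1, since Plxnb2 and Sema3b were also highest and lowest in these cultures. Of the members, 15 were lowest of all cultures in knockdown replicate 2. The part of these cell types was not tested. Beside Efnb3, the 6 neuron markers summed to 3363 to 4420 CPM in knockdown and 3309 to 5486 CPM in control, a sum to which Tubb3 and Stmn2 contributed most. Of these markers Snap25 (log2 fold change -0.60) and Syt1 (-0.37) were lower in each knockdown culture than in each control culture. The other neuron markers overlapped, with Stmn2 at -0.57, Rbfox3 at -0.30, Map2 at -0.19 and Tubb3 at 0.09. Of the excitatory markers Neurod6 (-0.80) was lower in each knockdown culture, while Slc17a6 (-0.53), Slc17a7 (0.02) and Tbr1 (0.42) overlapped. Of the inhibitory markers Gad2 (-0.47) was lower in each knockdown culture, while Gad1 (0.30) and Slc32a1 (0.88) overlapped. The part of neuronal RNA in the Efnb3 difference was not tested.

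Gene length ran with the estimates, in the members as in all genes. The length used is the span from start to end in rn5, introns included. Of the 15 members longer than 100 kb, 11 were lower (73.3%), with a median log2 fold change of -0.30, where 70.3% of the 1668 tested genes of that length were lower with a median of -0.20. The 31 shorter members had a median of 0.03, of which 13 were lower. With offsets that take out the trend with length over all genes, the median of the long members was -0.02 and that of all receptors 0.02. Among the 19 receptors themselves, however, estimate and length showed almost no rank correlation without the offsets (Spearman's coefficient 0.0246) and a positive correlation with them (0.382), against -0.289 and -0.139 among the 27 ligands. These correlations are across genes that share the same 6 libraries. With these offsets Sema3e, at 274732 bases a long gene, had an estimate of -1.39, Sema3c of -1.04 and Sema5a of -0.92. Efnb3, at 5996 bases a short gene, had -1.24.

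**Figure D4:**
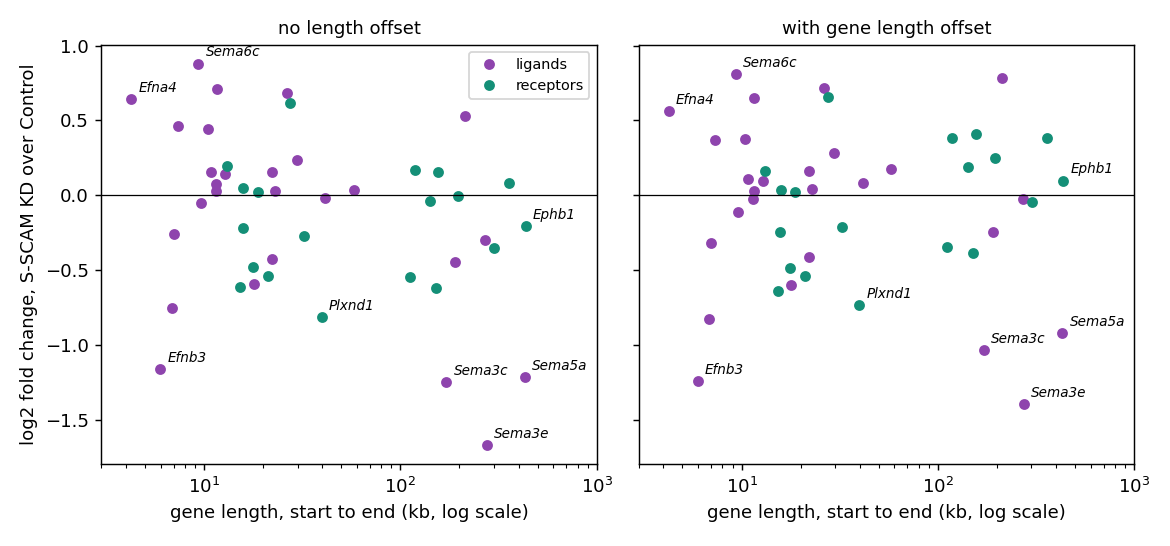
Log2 fold change (S-SCAM KD over control, y axis) against gene length from start to end (kb, log axis) of the 46 members tested, ligands in purple and receptors in green, without (left) and with (right) an offset for gene length. Members over 100 kb have a median of -0.30 on the left and -0.02 on the right, while Sema3e, Sema3c, Sema5a and Efnb3 are the 4 lowest in both panels.

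Genes that work beside these receptors were counted in the same way. Their lists were chosen with earlier results of these data known, so the shares below are described and were not tested. Of 34 listed partners of semaphorin signalling, 28 were tested, 11 higher and 17 lower with a median of -0.10, and 25.0% had separated groups against 17.6% of all genes. The median length was 20278 bases over all genes and 68173 bases among these partners. With the length offsets their median estimate was 0.12. DESeq2 called 1 of them, where it called 1.32% of all genes. This was the receptor tyrosine kinase Met, which couples to B-type plexins, at 21.2 ± 6.62 CPM in knockdown and 70.7 ± 20.8 CPM in control (SD, n = 3 each). Its log2 fold change was -1.74, with an adjusted p of 0.228 in edgeR and 0.000426 in DESeq2, and of 0.0548 without control replicate 3. Cntn2, a contactin of axons, and Mical2, an actin-oxidising enzyme of a family that acts below plexins, had estimates of -0.66 and -0.63 with separated groups.

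Of 34 listed partners of Eph and ephrin signalling, 31 were tested, 5 higher and 26 lower with a median of -0.14, and 25.8% had separated groups. Of all 13917 genes tested, 6629 were higher and 7288 lower, and 17.6% had separated groups. The median length was 20278 bases over all genes and 71748 bases among these partners. With the length offsets their median estimate was -0.06. DESeq2 called 1 of these partners, where it called 1.32% of all genes. This was Sipa1l1, a RapGAP of spines that binds Epha4, at 38.0 ± 11.5 CPM in knockdown and 79.8 ± 5.36 CPM in control (SD, n = 3 each). The estimate was -1.07, with an adjusted p of 0.319 in edgeR and 0.0352 in DESeq2, and the call was lost in 5 of 6 fits that left out a culture. Ngef, the exchange factor ephexin that Epha4 activates, had an estimate of -0.58, Grip2, a PDZ scaffold of ephrin-B ligands, of -0.52, and Sdcbp, the PDZ protein syntenin that binds ephrin-B, of -0.79. Anks1a, an adaptor of Eph receptors, had 0.62. Each of these 4 had separated groups and an unadjusted p under 0.05, and none was called by DESeq2.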

How the data were processed

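Per the methods, libraries were made by the authors with Illumina's TruSeq RNA kit (v2), which keeps no strand, and read from a single end. Base calls were split by sample in CASAVA 1.8.2 and inspected in FastQC 0.10.0. STAR 2.3.0 placed the reads on rn5, SAMtools 1.2 sorted them, and HTSeq 0.6 gave the raw read count of each gene, which is the deposited unit and carries no normalization. The strand and overlap settings of HTSeq are not given in the sources used here. The authors' own test was DESeq2 1.8.1, and no column of their results was used.

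Counts were compared in R 4.3.3 with edgeR 4.0.16 (TMM, filterByExpr with a minimum count of 10, quasi-likelihood test, condition alone, 13917 genes tested), and p-values were adjusted by Benjamini-Hochberg over all genes with a threshold of 0.05. DESeq2 1.42.0 (Wald test, 14743 genes with an adjusted p) was the second test. Alternatives were limma-voom (limma 3.58.1), RLE and upper-quartile normalization, no filter, a stricter filter (10 counts or more in each library), the replicate number as a block, offsets for gene length from a loess fit (span 0.5), and leaving out each culture in turn. The procedure was tested on simulated counts. Chi-square values per degree of freedom between replicate libraries were 68.9 to 165, so no library was a copy of another.

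The members and the partner and marker lists were chosen with earlier results of these data known. Members given with values of each culture were those called by either tool, those with an unadjusted edgeR p under 0.05 and separated groups, and in each class the gene with the highest mean CPM and the gene with the smallest p. Sema3a, Sema4f, Nrp1, Plxnb1, Plxnb3 and the plexin C1 and Plxna4a rows were added after their values were seen. Promoters came from RefSeq (GRCr8) and were matched by symbol. Of the marker lists, the mural one (3 of 4 in the table) summed to 22.7 to 55.5 CPM in knockdown and 54.8 to 68.0 CPM in control, the excitatory one to 478 to 607 CPM in knockdown and 485 to 685 CPM in control, the microglial one (7 of 8 in the table) to 0.277 to 2.33 CPM in knockdown and 3.00 to 27.4 CPM in control, and the inhibitory one to 369 to 700.3 CPM in knockdown and 384 to 576 CPM in control. Another partner list is not reported here.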

Additional observations from a re-analysis of the deposited data

How the results depend on the processing

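With 3 cultures per group and a biological coefficient of variation of 0.317, single libraries decided several calls. EdgeR called 0 members under each alternative of its own (0 to 0 leaving out each culture), and over all genes 8 without the filter and 0 to 1 leaving out each culture. DESeq2 called 2 members and 195 genes, and leaving out each culture gave 0 to 8 members and 41 to 742 genes (299 without control replicate 2, 41 without control replicate 3, 102, 123 and 742 without knockdown replicates 1, 2 and 3). The members it called were Sema3e (-1.65) and Efnb3 (-1.14). Magi2 was called by DESeq2 (-1.44, adjusted p = 0.00124) and not without control replicate 3 (-1.32, 0.0785). Members at an unadjusted p under 0.05 numbered 9 in edgeR and 4 to 11 leaving out each culture, with 4 when knockdown replicate 2 and 5 when knockdown replicate 1 was left out. The receptor median turned to 0.021 with the length offsets, was -0.15 with the length offsets and the replicate block, and ran from -0.30 to -0.074 leaving out each culture. The ligand median ran from -0.01 to 0.09. Signs of small estimates turned: Epha4 with length offsets (0.19), with length offsets and the replicate block (0.25), with limma-voom (0.028) and with the replicate block (0.052), and between -0.30 and 0.26 leaving out each culture. Ephb1 turned with length offsets (0.098), with these and the block (0.068) and between -0.47 and 0.11 leaving out each culture. Sema4g turned with length offsets (-0.027), with these and the block (-0.012), with upper-quartile normalization (-0.0047) and between -0.071 and 0.20 leaving out each culture. Leaving out each culture also turned Efna3 (-0.51 to 0.17), Plxnb2 (-0.080 to 0.28) and Sema6d (-0.058 to 0.15). The causes of these changes were not tested. Sema3e, Sema3c, Sema5a, Sema4a, Efnb3, Plxnd1, Nrp2 and Ephb6 stayed negative, and Sema6c, Efna4 and Epha2 positive, under the alternatives run. The labels and column names give the groups shared replicate numbers without saying what they mark. Same-numbered cultures deviated together at correlations of 0.607, 0.101 and -0.0908, and not each correlated best with its own number. With 3 cultures per group these correlations cannot exclude that the numbers mark pairs. Since no source says so, the main fits did not treat them as pairs. With the replicate number as a block, edgeR called 0 genes, and DESeq2, an alternative added after seeing the data, called 295 genes and 4 members, Efnb3, Sema3c, Sema3e and Sema5a. Depth limits Epha1, Sema3g, Epha2, Sema3d and Efna1, the members with the fewest reads.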
